A study of Mus musculus with 7 samples.

Results

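The transporters that carry bile acids, sterols, organic anions, organic cations and drugs across hepatocyte membranes were examined in mouse primary hepatocytes that received the microRNA miR-709. The set holds every gene of the ABC subfamilies A, B, C, D and G whose symbol carries a number (without *Abcd4*), every *Slco* gene and every *Slc22a* gene that is named by a probe set with a single gene symbol, together with *Slc10a1*, *Slc10a2*, *Slc47a1*, *Slc51a* and *Slc51b*. A gene with several probe sets was represented by the brightest, and the set came to 85 genes of the 19938 tested. Hepatocytes of male C57BL/6J mice, prepared with collagenase and a Percoll step, were transfected in culture with 1 µg of miR-709 mimic (4 arrays, replicates A to D) or with 1 µg of Cel-239b, a worm microRNA that served as control (3 arrays, replicates B to D), and RNA was taken 24 h later from both. The sources used here do not say whether the replicates came from separate mice or cell isolations, so the p-values speak only for the spread among the arrays at hand. Values are log2 signals from Affymetrix Mouse Gene 1.0 ST arrays, normalized with RMA, and a gene is called higher or lower at an adjusted p under 0.05 (limma, 2-sided, Benjamini-Hochberg over all 19938 genes).

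Hepatocytes are polarized: the sinusoidal membrane faces the blood and the canalicular membrane faces the bile. Carriers of the SLC10, SLCO and SLC22 families take up bile acids, hormones and drugs from blood, and ATP-driven pumps of the ABC family push bile acids, phospholipids, sterols and conjugates into bile or back into blood. Nuclear receptors such as FXR, LXR, PXR and CAR, with the hepatocyte factor HNF4A, are well known regulators of these genes, and cultured hepatocytes are known to lose part of their transporter expression.

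In miR-709-treated hepatocytes 6 of the 85 transporter genes were called higher and 0 were called lower, while 79 were not called. Over all genes 1.81% were called higher and 1.47% lower. The 6 were *Slco1a4*, an uptake carrier of the blood side, *Abcg5* and *Abcg8*, which together form the sterol pump of the bile side, *Abcc6*, a pump of the blood side, and 2 members without a settled membrane role in hepatocytes here, *Slc22a27* and *Abcc12*. The set as a whole lay close to all genes: the median log2 fold change (miR-709 minus Cel-239b) was 0.005 (0.0125 over all genes), and 45 members (52.9%) lay above 0, against 54.9% of all genes. At an unadjusted p under 0.05, which 15% of all genes reached, there were 18 members, 14 of them higher and 4 lower. By the methods' t-test with the same adjustment only *Slco1a4* was called higher (1 member) and none lower.

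The 7 arrays were alike in scale, with a median log2 signal of 5.04 to 5.07 over all probe sets. Hepatocyte genes were strongly detected, with *Alb*, the gene of albumin, between 13.41 and 13.52. Of 10 hepatocyte markers, 3 were called higher (*Cps1*, *Tat* and *Hnf4a*). Among markers of other liver cells, 2 of 9 stellate cell genes (*Acta2* and *Tagln*) and 1 of 5 measured cholangiocyte genes (*Krt19*) were called lower, and 0 of 8 endothelial and 0 of 8 Kupffer cell genes were called by limma (1 and 0 at an unadjusted p under 0.05). The mean signal of the stellate list was 5.09 to 5.13 on the Cel-239b arrays and 4.77 to 4.87 on the miR-709 arrays. This difference came from *Acta2* and *Tagln* (log2 fold changes of -1.34 and -1.25), while the other 7 genes lay between -0.08 and 0.10 and the list's median was -0.03. That of the cholangiocyte list was 6.04 to 6.20 and 5.61 to 5.92, with a median log2 fold change of -0.29. The mean of the hepatocyte list was 11.40 to 11.49 and 11.59 to 11.72, while its median log2 fold change was 0.05 and *Alb* and *Apob* had -0.03 and -0.18. The part of these other cells in the transporter results was not tested, and in such bulk RNA fewer cells of a type and less RNA per cell cannot be told apart. Replicates C and D of miR-709 stood apart in 10 measured interferon response genes, whose mean lay 1.11 above the Cel-239b mean on each of them, against -0.09 on A and -0.05 on B. Without these 2 arrays, an alternative chosen after seeing the data, *Slco1a4* was called higher and *Abcc1* lower, and no other member was called.

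*Abcg5* and *Abcg8*, both called higher, share the stretch between their starts, which is shown for that reason. These genes lie side by side on chromosome 17 and are transcribed away from each other, and their annotated starts enclose 109 bases (chr17:84683012-84683120, plus strand, GRCm38.p6, from RefSeq). Capitals mark TTATCT, the reverse complement of AGATAA, the letters that GATA factors bind.

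Abcg5-Abcg8: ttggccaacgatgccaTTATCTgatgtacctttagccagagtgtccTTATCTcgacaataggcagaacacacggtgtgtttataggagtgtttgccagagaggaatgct

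Promoter windows of 250 bases before to 50 after the start were searched on both strands for AGATAA, and 3 matches were found in the window of *Abcg5* and 3 in that of *Abcg8*. *Abcg8* has another annotated start farther upstream, whose window held none. The windows of the facing starts share 209 bases, so the counts are largely of the same letters. At least 3 matches were found in 0.107% of the 32851 RefSeq promoter windows, and at least 1 in 11.2%. Of the 85 members, 71 had a window. The HNF4A letters searched (CAAAGTCCA) were found in 1 of them, *Abcd3*, which was not called, and in 0.475% of all windows. The HNF1 element (GTTAAT and ATTAAC with 1 base between) and AGGTCA repeated in the same direction after 1 base were in no member window. They were found in 0.009% and 0.04% of all windows. No member window held the LXR element searched (AGGTCA repeated in the same direction after 4 bases), the FXR element (AGGTCA and TGACCT with 1 base between) or the PXR element (AGTTCA repeated in the same direction after 4 bases), which were found in 0.015%, 0.009% and 0.012% of all windows. These letters are strict and so rare that the 83 member windows would hardly hold one. Their absence therefore says nothing about these receptors, and a match is a description, not a site.

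The bile acid exporter *Abcb11*, the uptake carrier *Slco1b2* and the nearby *Slco1a4*, which had the largest increase of the set, are shown. For each gene these are the 100 bases before the outermost start that RefSeq gives (GRCm38.p6). For *Slco1b2* and *Slco1a4* this outermost start lies 66 and 64 bases before the start on which their promoter windows are set. Capitals mark TGACCT, the reverse complement of AGGTCA, the core letters of nuclear receptor elements, which the LXR and FXR elements above contain. AGGTCA was found in 16.3% of all promoter windows. Those windows are longer than the 100 bases shown, and no share was counted for stretches of this length. The stretches shown are at chr2:69342617-69342716 (minus strand), chr6:141629352-141629451 (plus strand) and chr6:141856285-141856384 (minus strand), in that order.

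Abcb11: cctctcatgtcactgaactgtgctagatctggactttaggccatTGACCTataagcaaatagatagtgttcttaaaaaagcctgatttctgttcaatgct

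Slco1b2: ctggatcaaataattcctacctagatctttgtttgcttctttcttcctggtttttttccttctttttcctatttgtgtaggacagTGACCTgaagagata

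Slco1a4: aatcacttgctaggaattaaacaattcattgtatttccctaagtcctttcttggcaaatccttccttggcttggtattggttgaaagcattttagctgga

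*Abcb11* and *Slco1b2* each hold the core letters, 56 and 15 bases before the outermost start, counted from the match's first base. The stretch of *Slco1a4* holds neither set of letters. That of *Abcb11* holds aggccatTGACCT, which differs from the FXR element searched by 1 letter. How many other windows hold such a near match was not counted, and the meaning of this one was not tested. Over the whole windows, 13 of the 71 members with one held AGGTCA. Among the 5 called members with a window (*Abcc6* has none in the table used) it was found in *Slc22a27* only.

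On the blood side, 10 uptake carriers were analysed, and 1 was called higher and 0 lower. *Slco1a4* encodes Oatp1a4, which takes up bile acids, steroid conjugates and cardiac glycosides. Its log2 signal was 4.37, 4.02 and 4.08 on Cel-239b replicates B, C and D and 5.0, 5.23, 5.14 and 5.21 on miR-709 replicates A to D. Every miR-709 array lay above every Cel-239b array. The arrays of the treatments did not overlap in 16 members (11 higher and 5 lower), against 12.3% of all genes. The increase was 1.98-fold (log2 fold change 0.99 ± 0.09 (SE), 95% interval 0.78 to 1.20, adjusted p = 0.00056 from limma). The signals of *Slco1a4* on the control arrays were under the median of all probe sets. The values used carry no detection call, so neither these nor other dim signals are shown to lie above background, and the fold is one of signals. It was called in all 17 alternatives in which it could be tested, leave-one-out included.

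*Slco1b2*, a carrier of bile acids, bilirubin and statins and the counterpart of the human liver OATP1B carriers, lay just outside the threshold. Its log2 signal was 4.42, 4.41 and 4.50 with Cel-239b and 4.89, 4.60, 4.78 and 4.81 with miR-709. All miR-709 arrays were above all Cel-239b arrays, with replicate B the lowest. The log2 fold change was 0.33 ± 0.07 (SE; adjusted p = 0.0509 from limma), and 5 of 17 alternatives called it, with adjusted p between 0.0230 (without miR-709 replicate B) and 0.190 (the methods' t-test).

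The main sodium-dependent bile acid carrier *Slc10a1* (Ntcp) was 6.58, 6.21 and 6.42 with Cel-239b and 6.48, 6.64, 6.44 and 6.22 with miR-709. These ranges overlapped almost completely, and the interval of the log2 difference was -0.21 to 0.29. *Slco1a1*, another sinusoidal anion carrier, had 5.60, 5.39 and 5.47 and then 5.60, 5.83, 5.60 and 5.67, a log2 fold change of 0.19 that was not called (adjusted p = 0.296 from limma). The carnitine carrier *Slc22a5* (0.12), the organic anion carrier *Slc22a7* (-0.04), the prostaglandin carrier *Slco2a1* (-0.0025) and the carriers *Slco2b1* (0.10), *Slco1a5* (0.10) and *Slco1a6* (-0.05) were not called. *Slc22a7* was 5.20, 4.90 and 5.21 with Cel-239b and 4.93, 4.83, 5.27 and 5.23 with miR-709, with both treatments spread over the same range. *Slco2a1* was 11.54, 11.40 and 11.32 and then 11.57, 11.41, 11.35 and 11.34, nearly the same values in both. *Slco1a6* was nevertheless lower on every miR-709 array (2.99 to 3.06) than on any Cel-239b array (3.07 to 3.10), at signals near the low end of the scale. The mean log2 signal of *Slco1a5* was 2.84. Over the 10 uptake carriers, 4 of which had a mean log2 signal under 5, the median log2 fold change was 0.10 and 7 lay above 0. Their mean signal per array was 5.37 to 5.51 with Cel-239b and 5.59 to 5.63 with miR-709.

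*Slco1a4* and *Slco1b2* belong to a run of 6 members on chromosome 6 in GRCm38.p6 (*Slco1c1*, *Slco1b2*, *Slco1a4*, *Slco1a1*, *Slco1a6*, *Slco1a5*). The genes *Gm5724* and *Gm6614*, which are no members, lie among them. The log2 fold changes of the 6 members were 0.11, 0.33, 0.99, 0.19, -0.05 and 0.10 in that order. That of *Slco1a4* was the largest of the run, and 1 of 6 was called. Probe sets of such close relatives can take up each other's transcripts.

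**Figure D1:**
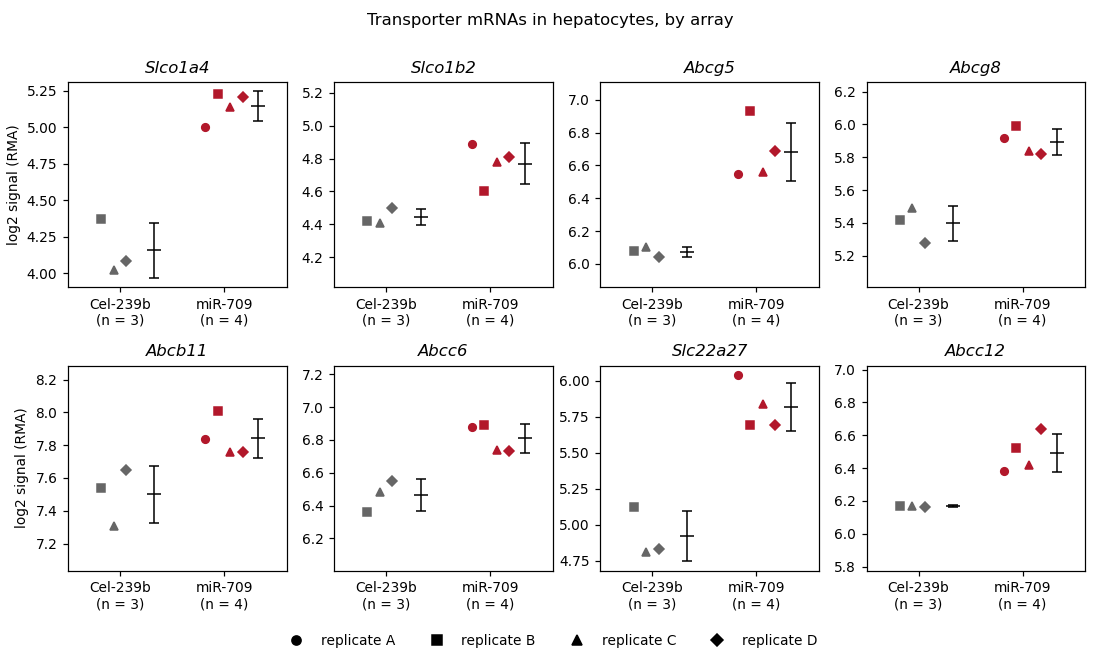
Log2 signal (RMA, vertical axis) of 8 transporters on each array with Cel-239b (grey, n = 3) or miR-709 (red, n = 4); marker shapes stand for replicate letters, and the black bar is the mean ± SD. In every panel all miR-709 points lie above all Cel-239b points; *Slco1a4* moves most, and *Slco1b2* and *Abcb11* were not called.

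On the bile side, 2 of 9 pumps and carriers were called higher and 0 lower. *Abcg5* and *Abcg8* encode the partner subunits of the pump that secretes cholesterol and plant sterols into bile. *Abcg5* had log2 signals of 6.08, 6.10 and 6.04 with Cel-239b and 6.55, 6.93, 6.56 and 6.69 with miR-709. *Abcg8* had 5.42, 5.49 and 5.28 and then 5.92, 5.99, 5.84 and 5.82. For both genes every miR-709 array was above every Cel-239b array, and replicate B was the highest. *Abcg5* rose 1.53-fold (log2 fold change 0.61 ± 0.09 (SE), adjusted p = 0.0072 from limma) and *Abcg8* rose 1.41-fold (log2 fold change 0.50 ± 0.07 (SE), adjusted p = 0.0055). The methods' t-test gave adjusted p of 0.0978 and 0.0613, and without miR-709 replicates C and D they were 0.0868 and 0.0558, so that neither was called there although the log2 fold changes were 0.67 and 0.56.

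*Abcb11* encodes Bsep, the bile salt export pump. Its log2 signal was 7.54, 7.31 and 7.65 with Cel-239b and 7.84, 8.01, 7.76 and 7.76 with miR-709. The miR-709 arrays were again all higher, but the gap between the highest control and the lowest treated array was small beside the spread of the controls. The log2 fold change was 0.34 (95% interval 0.13 to 0.55, adjusted p = 0.104 from limma), which was not called. It was called only when genes with a mean log2 signal under 6 were left out before the adjustment (adjusted p = 0.0427).

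The other bile side members were not called. *Abcb4*, the phosphatidylcholine floppase, had a log2 fold change of 0.08 (95% interval -0.10 to 0.25), and the multidrug pumps *Abcb1a* and *Abcb1b* had 0.09 and -0.15. *Abcg2*, the breast cancer resistance protein, had -0.05, and *Slc47a1*, which exchanges organic cations for protons, 0.09. *Abcb4* was 8.64, 8.62 and 8.61 with Cel-239b and 8.62, 8.89, 8.59 and 8.70 with miR-709, so that replicate B alone was clearly above the controls. *Abcb1b*, the multidrug pump known to rise in injured or cultured hepatocytes, was 7.85, 7.54 and 7.92 and then 7.42, 7.81, 7.48 and 7.76, with wide overlap. *Abcg2* was 9.30, 9.10 and 9.10 and then 9.24, 9.13, 8.99 and 9.11, again overlapping. *Abcb1a*, *Abcb1b* and *Abcb4* are neighbours on chromosome 5 and none was called.

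**Figure D2:**
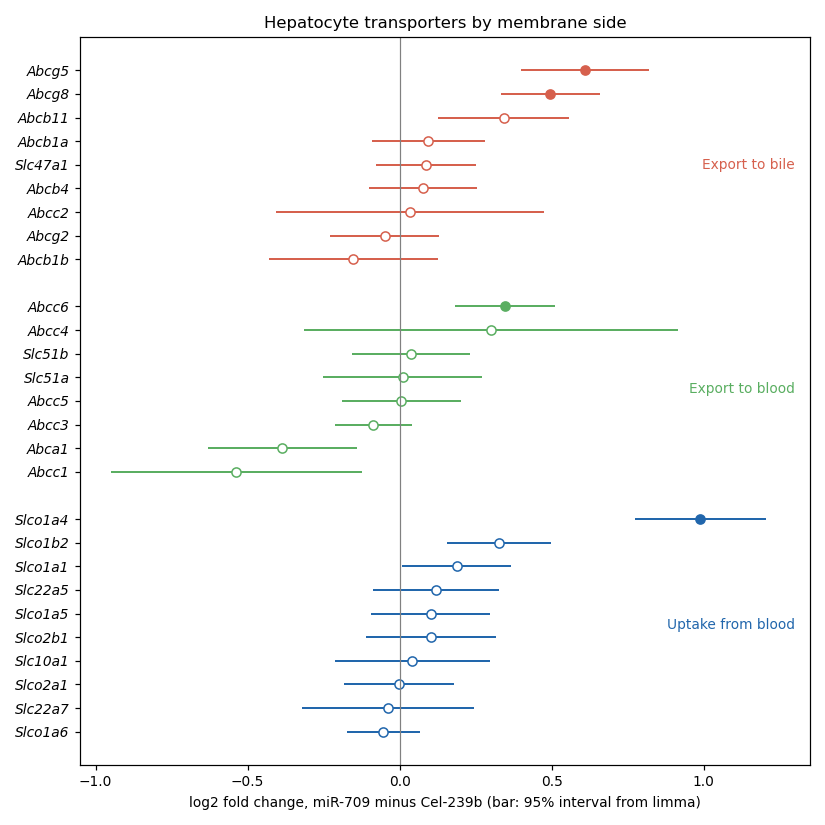
Log2 fold change (horizontal axis, miR-709 minus Cel-239b) with its 95% interval from limma for the transporters of each membrane side; filled points are called at an adjusted p under 0.05 and open points are not. The called members are *Abcg5* and *Abcg8* for export to bile, *Abcc6* for export to blood and *Slco1a4* for uptake; *Abcc1* and *Abcc4* have the widest intervals of those that export to blood.

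Of 8 members that export to blood, 1 was called higher and 0 lower. *Abcc6*, whose loss in humans causes pseudoxanthoma elasticum and which supports ATP release from liver, had log2 signals of 6.36, 6.48 and 6.55 with Cel-239b and 6.88, 6.89, 6.74 and 6.73 with miR-709. The treatments did not overlap. The increase was 1.27-fold (log2 fold change 0.35 ± 0.07 (SE), adjusted p = 0.0309 from limma), but only 11 of 19 alternatives called it, with adjusted p up to 0.166. The call was lost without Cel-239b replicate B or C (adjusted p = 0.113 and 0.108) and without miR-709 replicate A, B, C or D (0.0920, 0.0931, 0.0594 and 0.0571), at log2 fold changes of 0.30 to 0.37.

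*Abca1*, which loads cholesterol onto apolipoprotein A-I, ran the other way from *Abcg5* and *Abcg8*. Its log2 signal was 9.0, 8.65 and 8.64 with Cel-239b and 8.53, 8.45, 8.21 and 8.32 with miR-709. All miR-709 arrays were lower than all controls, and the log2 fold change of -0.39 (95% interval -0.63 to -0.14) was not called (adjusted p = 0.108 from limma). It was called lower when genes with a mean log2 signal under 6 were left out (adjusted p = 0.0441).

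The multidrug resistance proteins *Abcc1*, *Abcc2* and *Abcc4*, which export glutathione conjugates, bilirubin glucuronide and nucleotide or bile acid conjugates, differed among the miR-709 arrays themselves. *Abcc1* was 7.12, 7.01 and 7.11 with Cel-239b and 6.18, 6.24, 6.74 and 7.01 with miR-709 (A to D). *Abcc2*, of the bile side, was 9.90, 9.81 and 9.87 with Cel-239b and 9.50, 9.57, 10.10 and 10.40 with miR-709. *Abcc4*, of the blood side, was 7.80, 7.80 and 7.95 and then 7.77, 7.52, 8.46 and 8.85. Thus in all 3 genes replicate D was the highest miR-709 array and replicate C the next, while the control arrays lay close together. The log2 fold changes were -0.54, 0.03 and 0.30, none of them called (adjusted p = 0.192, 0.963 and 0.671 from limma). Interferon response genes were high on the same 2 arrays, and their part in these values was not tested. Without miR-709 replicates C and D, the log2 fold change of *Abcc1* was -0.87 (adjusted p = 0.0118, called), that of *Abcc2* -0.33 (adjusted p = 0.112) and that of *Abcc4* -0.21 (adjusted p = 0.518).

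**Figure D3:**
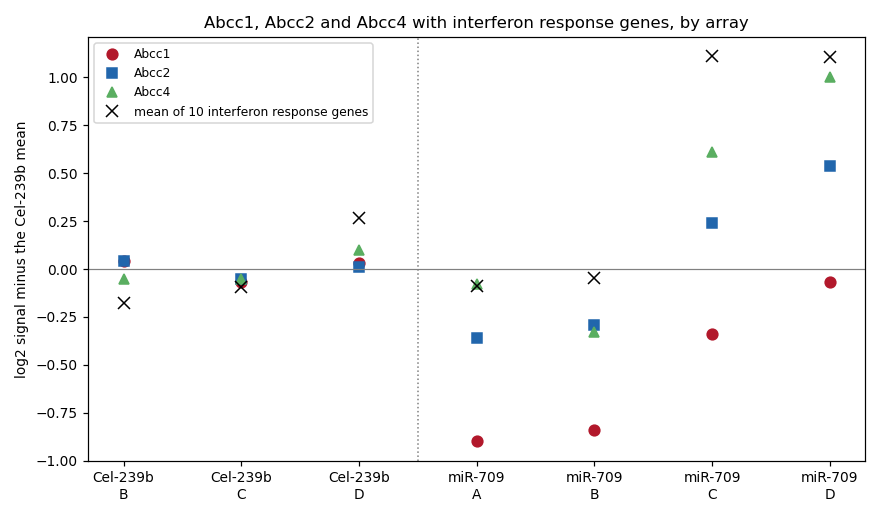
Log2 signal minus the Cel-239b mean (vertical axis) of *Abcc1*, *Abcc2* and *Abcc4* and of the mean of 10 interferon response genes on each of the 7 arrays. The 3 transporters lie close to 0 on the control arrays and spread widely on the miR-709 arrays, where replicates C and D are higher than A and B, as are the interferon response genes.

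*Abcc3*, which returns glucuronides to blood, was slightly lower on every miR-709 array (10.78 to 10.86) than on any Cel-239b array (10.87 to 10.96), with a log2 fold change of -0.09 that was not called (adjusted p = 0.518 from limma). *Abcc5*, an exporter of cyclic nucleotides, had 0.01, and the subunits of the bile acid and steroid exporter, *Slc51a* and *Slc51b*, had 0.01 and 0.04. Neither subunit was called, and both were dim, with mean log2 signals of 3.32 and 4.55.

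Of 11 members of mitochondria, peroxisomes, lysosomes and other inner membranes, 0 were called by limma or by the methods' t-test, while 2 had an unadjusted p under 0.05. *Abcb10*, a mitochondrial pump needed for heme synthesis, had log2 signals of 6.76, 6.77 and 7.18 with Cel-239b and 7.30, 7.42, 7.17 and 7.24 with miR-709. Cel-239b replicate D lay within the miR-709 range, and without it the log2 fold change went from 0.38 (adjusted p = 0.119 from limma) to 0.52 (adjusted p = 0.0191). It was also called where genes with a mean log2 signal under 6 were left out (adjusted p = 0.0494 from limma). *Abcb6*, a porphyrin transporter, was 8.70, 8.55 and 8.76 and then 8.82, 8.86, 8.92 and 9.06, with no overlap and a log2 fold change of 0.24 that was not called (adjusted p = 0.159). The peroxisomal fatty acid transporters *Abcd2* and *Abcd3* had 0.04 and 0.16, and neither was called.

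The remaining 47 members, mostly known from kidney, gut, retina, testis or not at all, held 2 that were called higher. Their mean log2 signals ran from 2.68 to 8.82, with 33 of 47 under 5, and their median log2 fold change was -0.03. *Slc22a27*, of the organic anion transporter family, had log2 signals of 5.12, 4.81 and 4.83 with Cel-239b and 6.04, 5.69, 5.84 and 5.69 with miR-709. No arrays overlapped, and the rise was 1.86-fold (log2 fold change 0.90 ± 0.11 (SE), adjusted p = 0.0021 from limma). The methods' t-test gave an adjusted p of 0.0666, and without miR-709 replicates C and D it was 0.0606, both short of a call. *Abcc12*, a relative of the multidrug resistance proteins, was 6.17, 6.17 and 6.16 and then 6.38, 6.52, 6.42 and 6.64. The controls were nearly identical and all miR-709 arrays were higher, by a log2 fold change of 0.32 ± 0.07 (SE; adjusted p = 0.0418). Its call stood in 9 of 19 alternatives. It was lost without Cel-239b replicate B, C or D (adjusted p = 0.123, 0.142 and 0.0977) and without miR-709 replicate B, C or D (0.117, 0.0741 and 0.0839).

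*Slc22a27* lies in a run of 7 members on chromosome 19 (*Slc22a19*, *Slc22a26*, *Slc22a27*, *Slc22a29*, *Slc22a30*, *Slc22a8*, *Slc22a6*). The gene *Slc22a28*, which is no member, lies among them. The log2 fold changes of the 7 members were 0.03, 0.01, 0.90, 0.08, 0.30, 0.10 and -0.05 in that order. *Slc22a30* was 3.81, 3.59 and 3.47 with Cel-239b and 3.88, 4.05, 3.88 and 3.88 with miR-709, which did not overlap and was not called (adjusted p = 0.125 from limma, and 0.0497 without Cel-239b replicate B). The largest of these differences was that of *Slc22a27*, and 1 of 7 was called.

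Other members with an unadjusted p under 0.05 were not called. *Abca6* (log2 fold change -0.29, adjusted p = 0.232 from limma) and *Slco3a1* (-0.26, adjusted p = 0.150), a prostaglandin and thyroid hormone carrier, were lower. *Abca8b* (0.33, adjusted p = 0.238) and *Slc22a18* (0.22, adjusted p = 0.142) were higher. In *Slc22a18* every miR-709 array (8.78 to 8.91) lay above every Cel-239b array (8.53 to 8.72), and in *Slco3a1* every miR-709 array (4.95 to 5.12) lay below (5.24 to 5.50). *Abca6* and *Abca8b* moved in opposite directions although they lie in the same run of 5 *Abca* genes on chromosome 11, of which 0 were called.

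**Figure D4:**
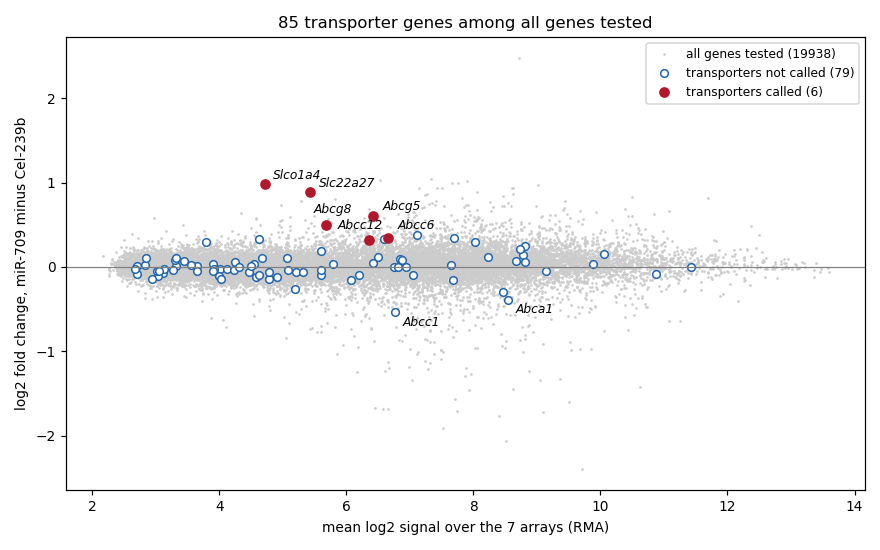
Log2 fold change (vertical axis, miR-709 minus Cel-239b) against the mean log2 signal over the 7 arrays (horizontal axis) for all 19938 genes (grey) and the 85 transporters (open blue, not called; filled red, called). The called transporters lie above 0 at low to middle signals, and most members lie near 0.

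Counted by family, the called members were 2 of 10 *Abcc* genes, 2 of 6 *Abcg* genes, 1 of 15 *Slco* genes and 1 of 22 *Slc22a* genes. Of 16 *Abca*, 9 *Abcb* and 2 *Abcd* genes and of the 5 *Slc10*, *Slc47* and *Slc51* genes, 0 were called by limma (3, 3, 0 and 0 at an unadjusted p under 0.05) and 0 by the methods' t-test. The share above 0 was 7 of 16 for *Abca*, 6 of 9 for *Abcb*, 5 of 10 for *Abcc*, 2 of 6 for *Abcg*, 11 of 22 for *Slc22a* and 7 of 15 for *Slco*, so that no family lay wholly to either side except the small *Abcd* (2 of 2) and *Slc10*, *Slc47* and *Slc51* (5 of 5) groups. *Slc10a2*, the sodium-dependent bile acid carrier known from ileum and bile ducts, was 8.80, 8.62 and 8.67 with Cel-239b and 8.98, 9.08, 8.70 and 8.60 with miR-709, and these values overlapped (log2 fold change 0.14, adjusted p = 0.623 from limma). *Abcc10* was lower on every miR-709 array (5.56 on each) than on any Cel-239b array (5.61 to 5.70), by a difference of -0.10 on the log2 scale that was not called.

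Many members were dim. Of the 85 members, 41 had a mean log2 signal under 5, and 1 of them was called. Of 33 members with a mean of at least 6, 3 were called (9.09%), against 6.76% of all genes with such signals. Standard errors had a median of 0.08 on the log2 scale, both over the members and over all genes.

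Genes that act with the transporters were taken from lists. Of 12 measured regulators, 2 were called higher and 0 lower. *Nr1i2*, the receptor PXR, had log2 signals of 6.91, 6.80 and 7.05 with Cel-239b and 7.52, 7.41, 7.46 and 7.53 with miR-709. *Hnf4a* had 9.45, 9.43 and 9.31 and then 9.94, 9.95, 9.93 and 10.03. Neither gene's arrays overlapped, and the log2 fold changes were 0.56 (adjusted p = 0.0028 from limma) and 0.57 (adjusted p = 0.0010). The bile acid receptor *Nr1h4* (0.03) and its target *Nr0b2* (-0.05), the receptor CAR, *Nr1i3* (0.0017), and the LXR gene *Nr1h3* (0.31, adjusted p = 0.160 from limma) were not called. *Nr0b2* and *Nr1i3* were dim, with mean log2 signals of 4.06 and 4.55, under the median of all probe sets.

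Of 15 genes of bile acid synthesis and conjugation, 2 were called higher and 0 lower. *Baat*, which joins bile acids to taurine or glycine, was 6.92, 6.62 and 6.78 with Cel-239b and 7.77, 7.66, 7.58 and 7.57 with miR-709. *Acox2*, which shortens the bile acid side chain in peroxisomes, was 8.89, 9.12 and 9.06 and then 9.83, 9.69, 9.70 and 9.68. The miR-709 arrays were all above the controls in both, with log2 fold changes of 0.87 (adjusted p = 0.00056 from limma) and 0.70 (adjusted p = 0.00086). *Cyp7a1*, the rate-limiting enzyme of bile acid synthesis, had a log2 fold change of 0.18 and was not called. Its mean log2 signal was 2.88, near the low end of the scale. *Akr1d1* lay just outside the threshold (0.59, adjusted p = 0.0517 from limma). In this list 12 genes lay above 0 and 3 below, with 6 higher and 0 lower at an unadjusted p under 0.05. Of 14 measured flippase, scaffold and traffic genes of the canaliculus 0 were called (3 higher at an unadjusted p under 0.05). *Pdzk1*, a scaffold of membrane carriers, had the largest difference of that list, 0.52 (adjusted p = 0.130).

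LXR is known to drive *Abcg5*, *Abcg8*, *Abca1* and *Abcg1*. Of 10 well known LXR targets, the 2 called were *Abcg5* and *Abcg8*, and the list's median log2 fold change was -0.02. *Abcg1*, an exporter of cholesterol to lipoprotein particles, had -0.06, and *Srebf1*, the master factor of fatty acid synthesis, had -0.06. *Mylip* (-0.01), *Scd1* (-0.03), *Lpcat3* (-0.17) and *Pltp* (0.07) were likewise not called.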

How the data were processed

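Total RNA of mouse primary hepatocytes was measured on 7 Affymetrix Mouse Gene 1.0 ST arrays, 4 with miR-709 and 3 with Cel-239b, and samples were grouped by their labels. The authors deposited log2 signals per probe set, produced by RMA in Partek, which corrects the background, equalises the distributions and summarises the probes, with versions not given in the sources used here. This narrows the differences of dim genes. Of 28853 probe sets, 21789 had 1 gene symbol and gave 19938 genes, each by its probe set of highest mean. Among the members only *Abcb5* had more than 1 probe set.

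Treatments were compared with limma 3.58.1 in R 4.3.3, with lmFit and eBayes, 2-sided and Benjamini-Hochberg adjusted over all genes. The script was tested on simulated data. Arrays do not give a depth, and their number limits the precision. The members and the gene lists were chosen with earlier results of these data known. Named were all called members, all members of the uptake, blood export and bile side lists, other members with an unadjusted p under 0.05, and called genes of the other lists. Other genes in the text were picked once their values were known.

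Alternatives were the methods' t-test (a 1-way ANOVA of 2 groups), limma-trend, array weights, blocks by replicate letter, minimum mean log2 signals of 5 and 6, averaged probe sets or all of them, cyclic loess, centring on the median, quantile normalization once more, each array left out, and, added after seeing the data, the arrays without miR-709 replicates C and D. Promoter windows are RefSeq sequences of GRCm38.p6. The sequence of miR-709 was not used here.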

Additional observations from a re-analysis of the deposited data

Results flagged for a closer look

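Of 40 genes checked for a single miR-709 array far from the other 3, 3 had one. Chance alone gives such an array in about 1 in 20 groups. *Slc22a30* was 4.05 on replicate B against 3.88 on the others. *Slco3a1* was 4.95 on replicate B against 5.11 to 5.12. *Acox2* was 9.83 on replicate A against 9.68 to 9.70. In all 3 genes the treatments did not overlap with or without that array.

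A probe set that names *Slc22a28*, *Slc22a30* and *Slc22a29* together, and so is no member, had log2 signals of 3.38, 3.20 and 3.47 with Cel-239b and 3.48, 3.95, 3.53 and 3.48 with miR-709. All miR-709 arrays were above the controls, by a mean of 0.26 on the log2 scale, at a low signal.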

How the results depend on the processing

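The number of members called higher was 6, and 4 to 6 when each array was left out in turn, with 0 called lower. *Slco1a4*, *Slc22a27*, *Abcg5* and *Abcg8* were called in each of those runs. It was 1 by the methods' t-test and 1 without miR-709 replicates C and D. The number called lower was 1 (*Abca1*) at a minimum mean of 6 and with the replicate letter as a fixed block, and 1 (*Abcc1*) without replicates C and D. Uptake calls numbered 2 with averaged probe sets, further quantile normalization, cyclic loess and median centring, each adding *Slco1b2*, 0 at minimum means of 5 and 6, which leave out *Slco1a4*, and 1 to 2 with an array left out (2 without miR-709 replicate B). Bile side calls numbered 0 by the methods' t-test and 0 without replicates C and D. Members above 0 numbered 27 of 44 and 22 of 33 at minimum means of 5 and 6, where fewer were tested. At a mean of at least 6 this was 66.7% of members, against 58.5% of all genes with such signals. Of the 52 members with a mean under 6, 23 (44.2%) lay above 0.

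Deviations from the group means had correlations of 0.02 to 0.05 between arrays of the same replicate letter. Between different letters they were -0.06 to 0.08. With so few arrays this is a weak check, and the labels do not say what the letters mark. With the letters as a fixed block, 4 members were called higher. There the log2 fold changes of *Slc22a7* (0.0067), *Abcc5* (-0.027) and *Slc51a* (-0.04), none called, changed sign. *Abcc5* also did after quantile normalization (-0.0071) and cyclic loess (-0.018), as did *Abcc2* after cyclic loess (-0.0085) and *Slc51a* with array weights (-0.011). Without replicates C and D the signs of *Abcc2* (-0.33), *Abcc4* (-0.21), *Slco2a1* (0.07) and *Abcg2* (0.018) changed. The cause was not tested. With an array left out, log2 fold changes that changed sign ran from -0.055 to 0.13 for *Slc10a1*, from -0.0533 to 0.0575 for *Slco2a1*, from -0.14 to 0.04 for *Slc22a7*, from -0.065 to 0.0667 for *Abcc5*, from -0.14 to 0.085 for *Slc51a*, from -0.04 to 0.135 for *Slc51b*, from -0.137 to 0.163 for *Abcc2* and from -0.09 to 0.0175 for *Abcg2*. No scaling moved the median of all genes by over 0.1. Dim genes limit the rest: 41 of 85 members had a mean log2 signal under 5.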
